A study of Mus musculus with 2 samples.

Results

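The genes described here are 9 genes of fatty acid oxidation in the peroxisome, Ehhadh, Acaa1a, Acaa1b, Ech1, Eci2, Abcd3, Pex11a, Crat and Hsd17b4, which were taken by symbol from the 31053 genes listed with the deposited matrices. All 9 were found, and all 9 passed the minimum of 10 CPM (UMIs per 1000000 UMIs, mean of both libraries) that decided which genes were compared. Single liver cells of C57BL/6 mice were sequenced from 1 library of mice on chow and 1 library of mice on a NASH diet (the NASH library below), a feed high in fructose, fat and cholesterol that is used to model non-alcoholic steatohepatitis. Both feeds were given for 6.5 weeks. Liver was digested with collagenase and cells of several densities were recovered on Percoll, and libraries were made with a 10x Genomics 3' kit, in which each unique molecular identifier (UMI) stands for 1 captured RNA molecule. No source used here gives the number of mice behind each library, their sex or their age.

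Peroxisomes shorten fatty acids that mitochondria handle poorly, among them very long-chain, branched and dicarboxylic acids. Acyl-CoAs enter through transporters of the ABCD family, the chain is first desaturated, multifunctional enzymes hydrate and dehydrogenate the product, and a thiolase releases acetyl-CoA. The shortened chain leaves the organelle as a carnitine ester or a free acid. In rodent liver many genes of the pathway are known targets of the fatty acid receptor PPAR alpha, and peroxisomes multiply when that receptor is activated.

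The chow library held 7359 barcodes and 71635757 UMIs, and the NASH library held 5881 barcodes and 39440182 UMIs. Barcodes were called hepatocyte-like when at least 2% of their UMIs outside mitochondrially encoded genes came from 12 hepatocyte markers such as Alb, Apoa1 and Ttr, and when they did not exceed a limit on markers of other cell types. This class held 4142 chow barcodes, 95.7% of those that passed the filters, and 2193 NASH diet barcodes, 92.6%. Its hepatocyte markers summed to 81096 and 99134 CPM, while the list of cholangiocyte markers, the highest of the 8 other lists, stood at 34.6 and 18.7. The median mitochondrial share of the class was 12.5% in chow and 22.5% in NASH diet, and its part in the differences between diets was not tested. The libraries shared 69 barcode sequences, and without these the median log2 ratio of the 9 genes was 0.97, as with them. With 1 library per diet there was no test between diets and no spread between animals, and every interval below is an exact 95% interval that covers counting error only.

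All 9 genes stood higher in the NASH library, as did 4217 of the 6200 genes compared. The thiolase gene Acaa1b was 9.40-fold higher, the multifunctional enzyme gene Ehhadh 4.23-fold and the membrane protein gene Pex11a 2.69-fold. The other 6 genes lay between 1.60-fold and 2.04-fold. On the log2 scale, with a pseudocount of 1 CPM, the median ratio of the 9 genes was 0.97, against 0.15 over all 6200 genes compared. Relative to that median of all genes, the 9 ratios ran from 0.53 for Abcd3 to 3.08 for Acaa1b. At least 2-fold higher means here a log2 ratio of 1 or more. By this rule 3 of the 9 genes were at least 2-fold higher, against 2.98% of all genes compared, and 0 were at least 2-fold lower, against 2.42%. The threshold fell inside a close group: Crat at 0.99, Eci2 at 0.97 and Ech1 at 0.97 lay just under it, and Pex11a at 1.40 was the nearest gene above. The count is therefore 6 of 9 when UMIs are expressed per 1000000 UMIs outside mitochondrially encoded genes, where 3.47% of all genes passed.

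**Figure D1:**
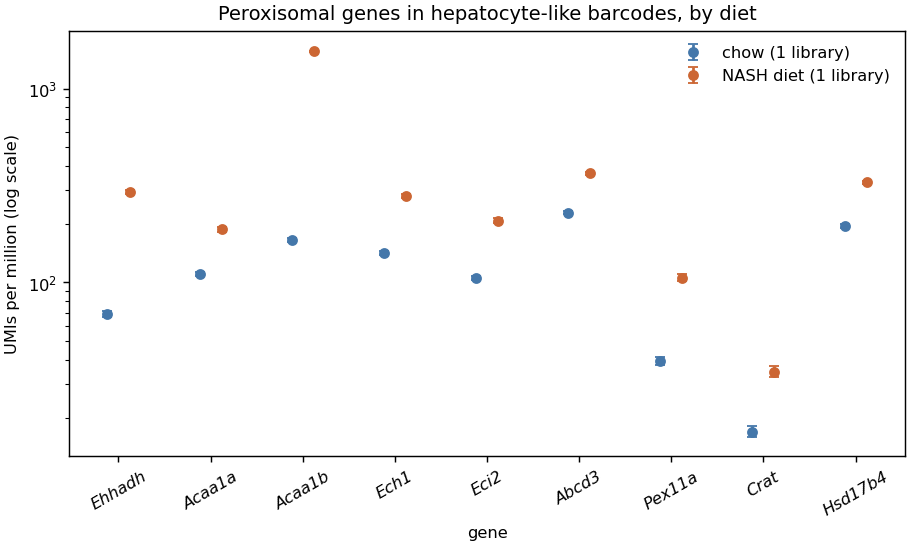
CPM (log axis) of the 9 genes in hepatocyte-like barcodes of the chow (blue) and NASH diet (orange) library, with exact 95% Poisson intervals, most of them smaller than the points. Each gene is higher in the NASH library, and the gap is widest for Acaa1b, at 165 against 1554.

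Acaa1a and Acaa1b encode the peroxisomal thiolases, which carry out the last step of each round. Both genes lie on chromosome 9 of GRCm38, on opposite strands and 182583 bases apart. Acaa1b is at chr9:119148023-119157093 on the minus strand and Acaa1a at chr9:119339676-119350299 on the plus strand (GENCODE M21). Their longest coding transcripts were 84.3% identical over the alignment, while their promoter windows were 44.6% identical. The promoters of the pair and of Ehhadh are shown because the transcripts are so alike and the levels under the NASH diet so unlike. The sequences are from RefSeq (GRCm38.p6), run 5′ to 3′ on the strand of the gene, and hold 250 bases before to 50 bases after the annotated start. Capitals mark CCAAT, the pentamer bound by the factor NF-Y, on either strand (ATTGG where it lies on the opposite strand).
Acaa1b, chr9:119157044-119157343, minus strand: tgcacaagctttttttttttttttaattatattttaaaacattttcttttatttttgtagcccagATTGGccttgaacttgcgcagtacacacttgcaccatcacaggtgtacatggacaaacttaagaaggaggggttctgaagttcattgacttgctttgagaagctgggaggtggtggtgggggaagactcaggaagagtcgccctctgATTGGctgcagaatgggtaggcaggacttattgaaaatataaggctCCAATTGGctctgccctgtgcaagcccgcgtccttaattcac
Acaa1a, chr9:119341044-119341343, plus strand: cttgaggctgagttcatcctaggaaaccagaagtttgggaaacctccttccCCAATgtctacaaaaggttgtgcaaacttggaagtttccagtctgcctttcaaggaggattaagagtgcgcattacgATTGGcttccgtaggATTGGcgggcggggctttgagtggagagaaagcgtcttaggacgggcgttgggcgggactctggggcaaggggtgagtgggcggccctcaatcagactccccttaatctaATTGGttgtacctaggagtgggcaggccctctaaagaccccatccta
Ehhadh, chr16:21787785-21788084, minus strand: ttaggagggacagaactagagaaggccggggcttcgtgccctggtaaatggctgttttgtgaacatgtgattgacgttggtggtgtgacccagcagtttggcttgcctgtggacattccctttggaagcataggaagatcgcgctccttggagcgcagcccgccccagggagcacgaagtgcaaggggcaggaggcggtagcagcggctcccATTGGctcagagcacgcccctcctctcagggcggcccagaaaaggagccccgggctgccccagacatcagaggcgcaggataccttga
The RefSeq start of Acaa1a lies 1618 bases inside the GENCODE gene. CCAAT occurred 4 times in each thiolase promoter, with 2 overlapping matches just after the start of Acaa1b, and 1 time in the Ehhadh promoter. Of 32851 mouse promoters of this length, 37.4% held at least 1 CCAAT and 3.37% held at least 3. The 6-base site AGGTCA, a unit of the element that PPAR alpha binds, occurred on either strand in 0 of the 8 windows found for 7 of the 9 genes, against 16.3% of all promoters. The full direct repeat AGGTCANAGGTCA was matched with no fewer than 4 mismatches in these windows, and 24.6% of all promoters matched it with at most 3. The windows are short, and these matches describe letters only.

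Acaa1b had 8831 UMIs in chow hepatocyte-like barcodes, or 165 CPM (interval 162 to 169), and 38189 UMIs, or 1554 CPM (1538 to 1570), in the NASH library. Its log2 ratio of 3.22 (3.2 to 3.27, intervals of ratios being computed without the pseudocount) was the 10th highest of the 6200 genes. Acaa1a went from 111 to 188 CPM, a log2 ratio of 0.75 (0.70 to 0.81) and rank 346. The ratios of the pair thus had the same sign and unlike sizes. Of all UMIs given to the pair, Acaa1b held 59.8% in chow (59.0% to 60.6%) and 89.2% in the NASH library (88.9% to 89.5%). Because the transcripts are alike, reads can be shared between the genes: of the 50-base windows in the last 500 bases of each transcript, where a 3' kit reads, 42.1% of those of Acaa1a and 38.8% of those of Acaa1b occurred in the transcript of another gene. In the last 250 bases these shares were 25.4% and 0.995%, so the split between the genes is uncertain, more so for Acaa1a. Acaa1a also overlaps Myd88 and Slc22a14, and Acaa1b overlaps Dlec1, on the other strand, and no source used here says whether counting used strand.

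Ehhadh encodes the L-bifunctional enzyme, which hydrates and dehydrogenates the enoyl-CoA of each round, and which is known for its part in the breakdown of dicarboxylic acids. The gene lies at chr16:21761287-21787807 on the minus strand. Its level was 68.9 CPM in chow (66.7 to 71.2) and 292 in the NASH library (285 to 299), a log2 ratio of 2.07 (2.02 to 2.14) and rank 30. Hsd17b4, on chromosome 18 at 50128201 to 50196269, encodes the D-bifunctional enzyme, which carries out the same steps on branched and very long chains and on bile acid precursors. It stood at 196 and 328 CPM, a log2 ratio of 0.74 (0.70 to 0.79). Of the paired multifunctional enzymes, then, Ehhadh differed more between the diets, as Acaa1b did of the paired thiolases.

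Ech1 and Eci2 encode auxiliary enzymes that shift double bonds of unsaturated fatty acids into the position the pathway can use. Ech1, at chr7:28825217-28832247 on the plus strand, went from 143 CPM in chow (139 to 146) to 280 in the NASH library (274 to 287), a log2 ratio of 0.97 (0.93 to 1.02). Eci2, at chr13:34977748-35027096 on the minus strand, went from 106 (103 to 109) to 208 (203 to 214), also 0.97 (0.92 to 1.03). These ratios were nearly the same, although the zone patterns of the genes, given below, were not. For Eci2, 9.76% of the windows in the last 500 bases also occurred in Eci3, and in the last 250 bases 0 did.

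Abcd3, at chr3:121758774-121815302 on the minus strand, encodes the half-transporter PMP70 of the peroxisomal membrane, which brings in branched-chain and long-chain acyl-CoAs and bile acid intermediates. It had the smallest ratio of the 9 genes, from 228 CPM in chow (224 to 232) to 366 in the NASH library (358 to 373), a log2 ratio of 0.68 (0.64 to 0.72). Pex11a, at chr7:79735957-79743131 on the minus strand, encodes a membrane protein of peroxisome elongation and division. Its level was 39.4 CPM (37.7 to 41.1) in chow and 106 (102 to 110) in the NASH library, a log2 ratio of 1.40 (1.34 to 1.51) and rank 80. Crat, at chr2:30400471-30415813 on the minus strand, encodes carnitine acetyltransferase, an enzyme of peroxisomes and mitochondria that moves acetyl and other short chains onto carnitine. Crat had the fewest UMIs of the 9, 910 in chow and 854 in the NASH library, or 17.0 CPM (16.0 to 18.2) and 34.7 CPM (32.5 to 37.2). Its log2 ratio was 0.99 (0.89 to 1.16), so its interval spans the 2-fold limit. The promoter window of Pex11a held no CCAAT.

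The 3 genes at least 2-fold higher kept log2 ratios of 1 or more under all 14 alternative settings, which included another pseudocount, other filters and equal depth per barcode. The largest move came with a limit of 20% in place of 30% on the mitochondrial share, which kept 3399 chow barcodes (82.1%) but only 783 NASH diet barcodes (35.7%). There Acaa1b stood at 3.83, Pex11a at 1.79 and Ech1 at 1.59, the median was 1.42, and 6 of the 9 genes were at least 2-fold higher, against 6.33% of all genes. Ehhadh was then lower than under the wider limit, at 1.89.

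Zone was set from other genes. In the liver lobule, blood runs from the portal tract to the central vein, and hepatocytes along this path differ in gene expression. Barcodes of at least 10000 UMIs, 1864 in chow and 942 in the NASH library, were ordered within each library by a score of 10 pericentral minus 12 periportal markers, none of them among the 9 genes, and cut into 3 zones of equal size. Glul, a marker of the cells next to the central vein, stood at 26.6 CPM in the periportal and 709 in the pericentral zone of chow, and at 14.5 and 2438 in the NASH library. A zone here is a range of the score and not a cell type, and 278 chow and 119 NASH diet barcodes lay within 0.1 of a limit. Limits were set within each library, so zones of the same name cover unlike score ranges. The pericentral zone began at a score of -0.28 in chow and -1.16 in the NASH library. The part of this in the diet ratios by zone was not tested.

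The 9 genes together were highest in the pericentral zone of both libraries. Their summed level in chow was 818 CPM in the periportal, 932 in the middle and 1360 in the pericentral zone. In the NASH library it was 2096, 2584 and 4309. The median pericentral over periportal log2 ratio of the 9 genes was 0.57 in chow and 0.91 in the NASH library, against 0.14 and 0.23 over all genes compared. At least 2-fold higher in the pericentral zone were 3 of 9 genes in chow, against 2.68% of all genes, and 4 of 9 in the NASH library, against 4.15%. None of the 9 was at least 2-fold lower there, against 1.64% and 1.68%. The median UMI count per barcode was alike in the outer zones of chow, 26469 and 26506, but in the NASH library it was 19832 in the periportal and 26095 in the pericentral zone. Median mitochondrial shares were 17.9% and 20.3% in chow, and 24.7% and 22.5% in the NASH library. The part of depth and of the mitochondrial share in the zone values was not tested.

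**Figure D2:**
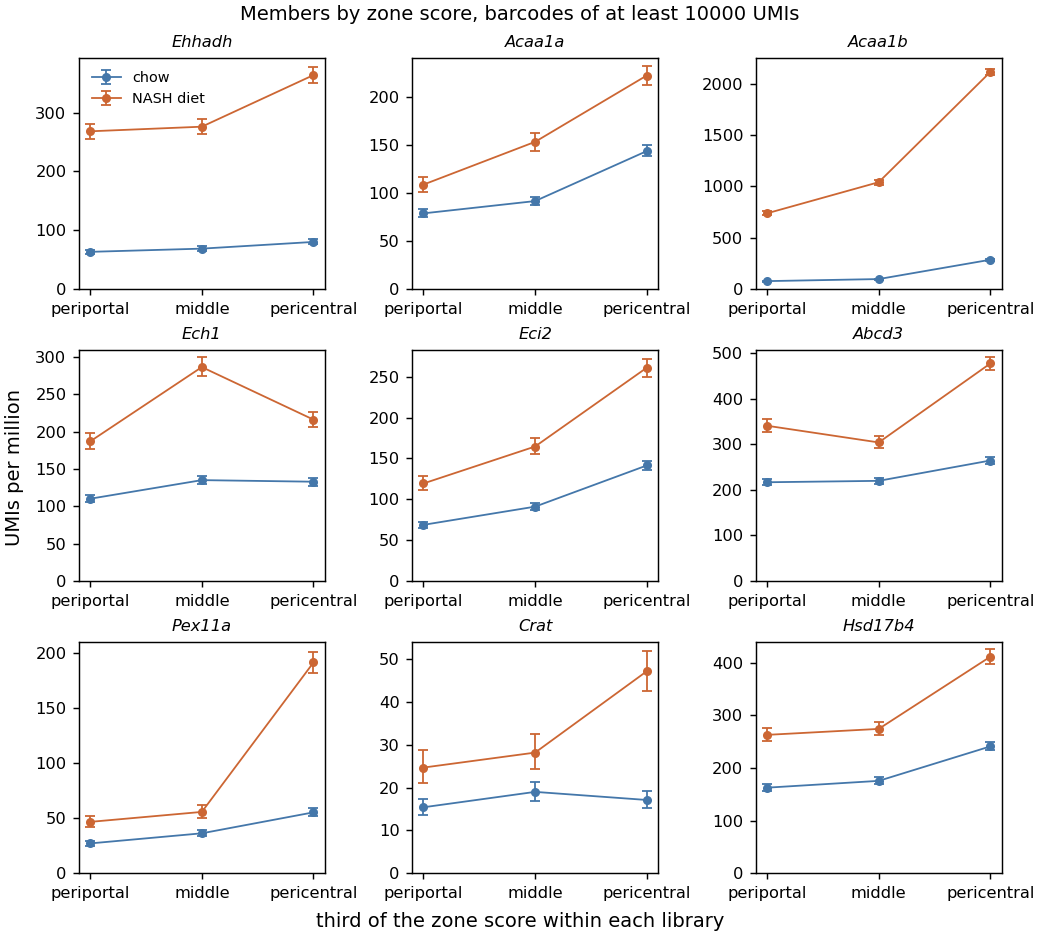
CPM of each gene in the periportal, middle and pericentral zone of barcodes with at least 10000 UMIs, chow in blue and NASH diet in orange, with exact 95% Poisson intervals; each panel has its own axis from 0. Pex11a in the NASH library climbs mainly in the pericentral zone, to 192, while Ech1 is highest in the middle zone, at 287.

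Acaa1b had the steepest zone difference of the 9 in chow. Its level there was 75.8 CPM in the periportal zone, 95.9 in the middle and 285 in the pericentral zone, a log2 ratio of 1.90 (1.82 to 2.0) between the outer zones. In the NASH library it was 738, 1042 and 2118, a ratio of 1.52 (1.48 to 1.57). The lowest zone under the NASH diet was thus above the highest zone of chow, and the NASH diet over chow ratio was smaller in the pericentral zone, 2.89, than in the periportal zone, 3.27. Acaa1a differed less across zones, with 78.6 and 143 CPM in the outer zones of chow and 108 and 222 in those of the NASH library. In chow, Acaa1b held 49.1% of the UMIs of the pair in the periportal and 66.5% in the pericentral zone. In the NASH library these shares were 87.2% and 90.5%.

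Pex11a differed most between the diets in the pericentral zone. In chow it stood at 27.0 CPM in the periportal, 36.2 in the middle and 55.3 in the pericentral zone. In the NASH library it stood at 46.6, 55.7 and 192. The NASH diet over chow log2 ratio was 0.77 (0.57 to 1.0) in the periportal zone, 0.61 (0.43 to 0.81) in the middle and 1.77 (1.68 to 1.91) in the pericentral zone. The interval of the pericentral zone did not overlap the other intervals, but these cover counting error only, with 1 library per diet and no spread between animals. Crat, with lower counts, had a similar order: 15.4, 19.0 and 17.1 CPM across chow, and 24.7, 28.2 and 47.2 across the NASH library. Its ratios were 0.65 (0.39 to 0.97), 0.55 (0.30 to 0.83) and 1.41 (1.24 to 1.69).

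Ehhadh, in contrast, differed between diets by nearly the same ratio in every zone, 2.07, 1.99 and 2.17 from periportal to pericentral. Its levels were 63.0, 68.5 and 79.9 CPM in chow and 268, 276 and 364 in the NASH library. Eci2 had a pericentral over periportal ratio of 1.03 in chow and 1.12 in the NASH library, and Hsd17b4 of 0.57 and 0.64. Abcd3 had small zone differences, 0.29 and 0.49. Ech1 was highest in the middle zone of the NASH library, at 187, 287 and 216 CPM, and its log2 ratio between the outer zones was 0.21. That sign turned to -0.26 at the 20% mitochondrial limit. Counted by zone, 2 of 9 genes were at least 2-fold higher under the NASH diet in the periportal zone (2.32% of all genes), 3 in the middle (2.84%) and 4 in the pericentral zone (3.25%). Ehhadh and Acaa1b were among them in each zone, joined by Ech1 in the middle and by Pex11a and Crat in the pericentral zone.

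Hepatocyte-like barcodes varied widely in depth. Under 2000 UMIs lay 1929 chow and 907 NASH diet barcodes, with median UMI counts of 653 and 1076, and the barcodes of at least 10000 UMIs held 94.1% and 89.1% of all UMIs of the class. Malat1, a nuclear RNA, stood at 117 CPM in the shallow, 1965 in the middle and 994 in the deep class of chow, and at 1081, 8326 and 946 in the NASH library. The middle class thus had the highest level in both libraries, and the part of this in the ratios by depth was not tested. Whether shallow barcodes are cells, cell fragments or free RNA was not tested.

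Depth split most of the 9 genes into groups, in the same way in both libraries. Acaa1a, Acaa1b, Ech1 and Eci2 were at least 2-fold lower in deep than in shallow barcodes, 4 of 9 in each library, against 16.1% of all genes in chow and 14.1% in the NASH library. Ehhadh and Abcd3 were higher in deep barcodes, 2 of 9 at least 2-fold in the NASH library (17.7% of all genes) and 0 of 9 in chow (15.7%). Ech1 showed the largest difference, at 471 CPM in shallow, 351 in middle and 126 in deep chow barcodes, a deep over shallow log2 ratio of -1.89 (-2.01 to -1.78). In the NASH library it stood at 832, 598 and 230, a ratio of -1.85 (-1.96 to -1.75). Abcd3 ran the other way, from 124 to 234 in chow and from 167 to 382 in the NASH library, ratios of 0.91 and 1.19. Pex11a differed little, with ratios of 0.01 (-0.37 to 0.42) and -0.04 (-0.31 to 0.24). Hsd17b4 was slightly lower in deep barcodes, at -0.26 (-0.41 to -0.09) in chow and -0.18 (-0.33 to -0.03) in the NASH library. Crat fell in neither group, at 0.49 (-0.16 to 1.31) in chow and -0.13 (-0.59 to 0.37) in the NASH library.

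**Figure D3:**
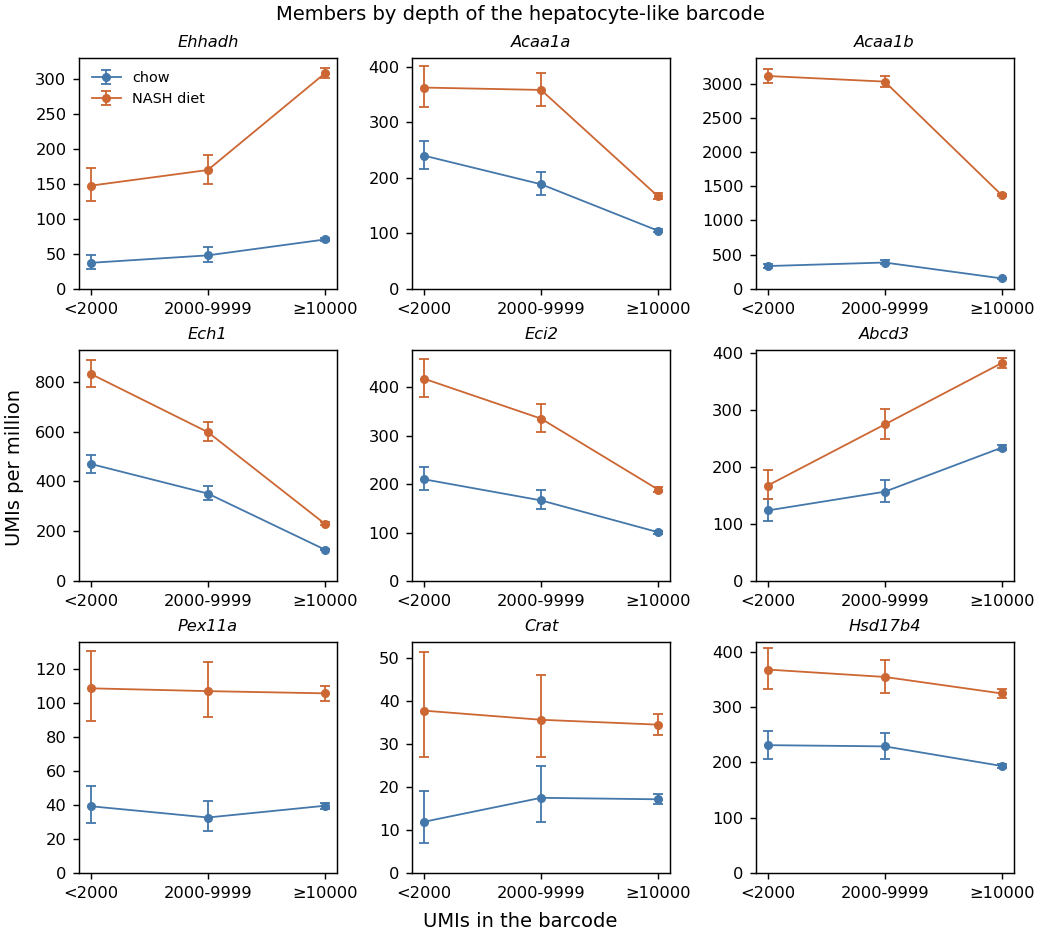
CPM of each gene by the UMI count of the hepatocyte-like barcode, chow in blue and NASH diet in orange, with exact 95% Poisson intervals; each panel has its own axis from 0. Acaa1a, Acaa1b, Ech1 and Eci2 are lower in deep barcodes and Ehhadh and Abcd3 higher, in both libraries.

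The split largely followed transcript length. The longest coding transcripts of Ech1, Acaa1b, Eci2 and Acaa1a have 1267, 1689, 1746 and 1762 bases, and those of the other 5 genes run from 2241 bases for Pex11a to 4224 for Crat. Across the 9 genes, Spearman's rho between length and the deep over shallow ratio was 0.88 in chow and 0.87 in the NASH library, as a description over genes that share the same libraries. The same held over all genes compared, with rho 0.65 over 5795 genes in chow and 0.53 over 6005 in the NASH library. Genes with transcripts under 2000 bases had a median ratio of -0.83 and -0.73, and those of at least 3000 bases 0.61 and 0.48. Crat, with the longest transcript of the 9 genes, lay below the median of its class, at 0.49 in chow and -0.13 in the NASH library. The 4 short genes of the pathway lay below the median of their length class. In that class, 38.8% of genes in chow and 31.8% in the NASH library were at least 2-fold lower in deep barcodes. These values do not separate length from other properties that go with it.

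The diet ratio of most of the genes was of similar size at every depth. Acaa1b had a NASH diet over chow log2 ratio of 3.22 in shallow, 2.97 in middle and 3.15 in deep barcodes, and Ehhadh of 1.96, 1.80 and 2.11. Pex11a had 1.44, 1.68 and 1.39. At least 2-fold higher were 4 of 9 genes in shallow barcodes (7.48% of all genes), 4 in the middle class (16.5%) and 3 in deep barcodes (2.89%). Crat passed the limit in shallow barcodes alone, at 1.58, from 17 chow and 40 NASH diet UMIs, and Eci2 in the middle class alone, at 1.01.

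Single barcodes were compared after each deep barcode was thinned to 10000 UMIs at random. Acaa1b had a UMI in 62.1% of chow barcodes (59.8% to 64.3%) and in 99.4% of NASH diet barcodes (98.6% to 99.8%), and unthinned in 84.1% and 100%. Its median was 1 UMI in chow and 10 in the NASH library, and the 10th percentile under the NASH diet, 4, equalled the 90th percentile of chow. The top NASH barcode gave 0.610% of all Acaa1b UMIs in the class. Other cell types were set beside this at a common depth of 2000 UMIs, since free RNA can also give a barcode a UMI. There Acaa1b had a UMI in 83.1% of deep hepatocyte-like NASH barcodes, in 6 of 44 endothelial-like barcodes, 13.6% (5.17% to 27.4%), and in 7 of 18 Kupffer-like barcodes, 38.9% (17.3% to 64.3%). The median depths before thinning were 21734, 5755 and 1584 UMIs, and 27 Kupffer-like barcodes were too shallow. In chow the shares were 23.9%, 2.44% and 1.96%, at median depths of 26572, 5226 and 4941. How much of the Acaa1b signal in single NASH barcodes is free RNA was not tested. Ehhadh had a UMI in 49.2% and 88.5% of barcodes (78.0% and 97.1% unthinned), with a median of 0 and 3. Pex11a had one in 30% and 54.2% (60.4% and 74.1% unthinned). At 2000 UMIs the NASH share of Ehhadh was 42.1%, against 11.1% (1.38% to 34.7%) in Kupffer-like barcodes. That of Pex11a was 16.2%, inside the Kupffer-like interval of 1.38% to 34.7%, so at that depth it could not be told apart from the Kupffer-like share, while in endothelial-like barcodes it was 0 of 44 (up to 8.04%). At 10000 UMIs, Pex11a had a UMI in 35.4% of periportal, 43.0% of middle and 84.4% of pericentral barcodes of the NASH library. In chow these shares, also at 10000 UMIs, were 21.4%, 30.9% and 37.7%.

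**Figure D4:**
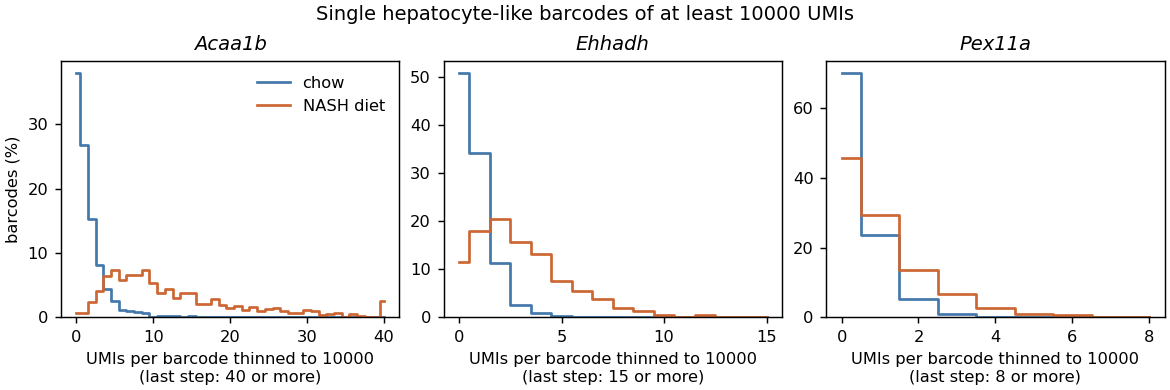
Percent of hepatocyte-like barcodes (y axis) with a given number of UMIs of Acaa1b, Ehhadh and Pex11a after thinning each to 10000 UMIs (x axis), chow in blue and NASH diet in orange, 1864 and 942 barcodes. The Acaa1b median is 1 in chow and 10 under the NASH diet.

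The spread between barcodes also differed by gene. The variance of thinned Acaa1b counts was 3.38 times the mean in chow and 9.95 times in the NASH library, where counting alone gives a ratio near 1. Within the periportal zone under the NASH diet this ratio was 2.22, and within the middle and pericentral zones it was 6.87 and 8.70. Ech1 followed at 1.89 and 3.14, and Crat lay at 1.05 and 1.08. This ratio grows with the mean, which for Acaa1b was 1.57 UMIs in chow and 13.2 in the NASH library. Acaa1b levels also rose across the zones of the NASH library, from 738 to 1042 and 2118 CPM. No order of spread between zones is therefore read from the zone ratios. The excess of the ratio over 1, divided by the mean, was 1.51 and 0.676 for Acaa1b, so on that scale the spread was smaller under the NASH diet. It was 0.685 and 0.913 for Ech1, and 0.275 and 0.244 for Crat. Barcode by barcode the 9 genes were weakly related: over their 36 pairs the median Spearman's rho was 0.04 in chow and 0.12 in the NASH library, in sparse counts that share library and depth. The highest value was 0.43, for Acaa1b with Pex11a in the NASH library.

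Barcodes with a mitochondrial share over 30% were left out above, and the 9 genes could be read in them per 1000000 UMIs outside mitochondrially encoded genes. With a share of 30 to 80% there were 430 hepatocyte-like barcodes in chow and 2109 in the NASH library. Acaa1b stood there at 309 and 2512, a log2 ratio of 3.02 (2.89 to 3.16), and Ehhadh at 104 and 313, a ratio of 1.58 (1.35 to 1.83). In these barcodes 5 of the 9 genes were at least 2-fold higher under the NASH diet, against 7.14% of all genes. With a share over 80% there were 2539 and 1103 barcodes, whose median count outside mitochondrial genes was 215 and 316 UMIs. Acaa1b stood there at 264 and 3029, a ratio of 3.51 (3.29 to 3.75), and 3 of the 9 genes were at least 2-fold higher, against 23.9% of all genes. Ech1 differed least in that class, at 324 and 344, a ratio of 0.08 (-0.22 to 0.39). Acaa1b held 61.3% of the UMIs of the thiolase pair in the chow barcodes of that class and 91.3% in those of the NASH library.

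Other cell types gave a view of what the 9 genes show outside hepatocytes. Endothelial-like barcodes numbered 50 in chow and 51 in the NASH library, and Kupffer-like barcodes 74 and 45, with median UMI counts of 5226, 5755, 4941 and 1584. Acaa1b stood at 11.6 and 122 CPM in the endothelial-like barcodes, from 3 and 49 UMIs, and at 19.5 and 387 in the Kupffer-like barcodes, from 10 and 58. These barcodes also held hepatocyte marker UMIs, at 7007 and 3673 CPM in endothelial-like and 11789 and 10570 in Kupffer-like barcodes. For each 1000 hepatocyte marker UMIs, Acaa1b under the NASH diet had 33.2 and 36.6 UMIs there, against 15.7 in the hepatocyte-like class and 57.8 in its shallow barcodes. The Acaa1b level outside hepatocytes therefore lay within the range of hepatocyte RNA, and no expression is read from it. Hsd17b4 in Kupffer-like barcodes stood at 158 and 227 CPM, from 81 and 34 UMIs. That was 13.4 and 21.5 UMIs for each 1000 hepatocyte marker UMIs, above the 2.41 and 3.31 of the hepatocyte-like class and the 3.1 and 6.83 of its shallow barcodes. Hsd17b4 lay above both references, interval included, in both cell classes of both libraries. Over all 9 genes this held for 16 of 36 values, among them Eci2 in NASH endothelial-like barcodes at 25.1 (17.6 to 34.5) and Abcd3 there at 14.2 (8.80 to 21.7). Crat in Kupffer-like barcodes, at 33.1 CPM (19.3 to 53.0) in chow from 17 UMIs, was above its level of 17.0 in hepatocyte-like barcodes. In the NASH library, at 26.7 CPM (7.27 to 68.3) from 4 UMIs, it could not be told apart from the 34.7 of hepatocyte-like barcodes.

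Other genes of the pathway were taken as lists, which are described by counts and medians. Their counts are to be read against the 2.98% of all genes compared that were at least 2-fold higher. Of 18 other genes of peroxisomal beta-oxidation 15 passed the minimum level, with a median log2 ratio of 0.74, and 2 were at least 2-fold higher. These were Acsl1, which activates fatty acids to acyl-CoA, at 1.63 (1.60 to 1.65), and Decr2, a reductase for unsaturated chains, at 1.04 (0.98 to 1.12). The acyl-CoA synthetase gene Slc27a2 stood at 0.88 (0.84 to 0.92).

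Of the list of thioesterases and Nudix hydrolases, 6 of 9 genes passed the minimum level, with a median of 0.72. At least 2-fold higher were 2, Acot4 at 1.55 and Acot12 at 1.07. Above 0 were 5 of the 6, and the lowest ratio was -0.28. The summed level of all 9 genes of this list was 926 CPM in chow and 906 in the NASH library. Genes of peroxisome biogenesis and membrane had a smaller median, 0.41 over 18 of 20 genes, with 1 at least 2-fold higher, Pex26 at 1.04 (0.93 to 1.31). Other peroxisomal enzymes had a median of 0.44 over 13 of 17 genes. Of these the epoxide hydrolase gene Ephx2 stood at 1.34, the urate oxidase gene Uox at 0.87, and the polyamine oxidase gene Paox was the lowest, at -0.91 (-1.12 to -0.79). In all these lists 0 genes were at least 2-fold lower.

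Mitochondrial beta-oxidation and ketogenesis, which takes the bulk of common fatty acids, had a median log2 ratio of 0.82 over 20 of 20 genes. All 20 genes of this list were above 0, as were 4217 of the 6200 genes compared. At least 2-fold higher were 3, Eci1 at 1.24, Hadh at 1.06 and Acadm at 1.02. The list of the PPAR alpha axis and its known targets outside the lists above had the highest median, 1.33 over 15 of 20 genes. Besides Ppara and targets it holds the regulator genes Rxra, Ppargc1a and Nr1h3. In it 9 genes were at least 2-fold higher, against 2.98% of all genes compared. The list was not uniform: 14 of the 15 genes compared were above 0, and the lowest ratio was -0.06, for Angptl4. The 5 genes below the minimum level, named after their values were seen, went both ways. Fgf21 was lower, at -0.37 (-0.71 to -0.14), and Cidea stood at -0.19 (-1.58 to 0.47). Acot2 stood at 2.49, Pdk4 at 0.81 and Ppargc1a at 0.43. Ppara itself went from 32.7 to 83.8 CPM, a log2 ratio of 1.33 (1.27 to 1.45). The fatty acid omega-hydroxylase genes Cyp4a10 and Cyp4a14 stood at 4.60 and 3.96, the thioesterase gene Acot1 at 3.76 and the lipid droplet gene Cidec at 3.48. The Cyp4a genes, and Acot1 and its relatives, have near-identical copies, so their separate values are uncertain. Among genes that passed the minimum level, Acaa1b lay within the range of this last list and above the highest gene of each of the other 5 lists. Below that level, and named after its values were seen, Acot3 of the thioesterase list went from 0.918 to 16.3 CPM, from 49 chow UMIs. Its log2 ratio with the pseudocount was 3.17, under the 3.22 of Acaa1b. Its interval without the pseudocount, 3.72 to 4.61, lay above that of Acaa1b, so the order of these genes depends on the pseudocount.

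**Figure D5:**
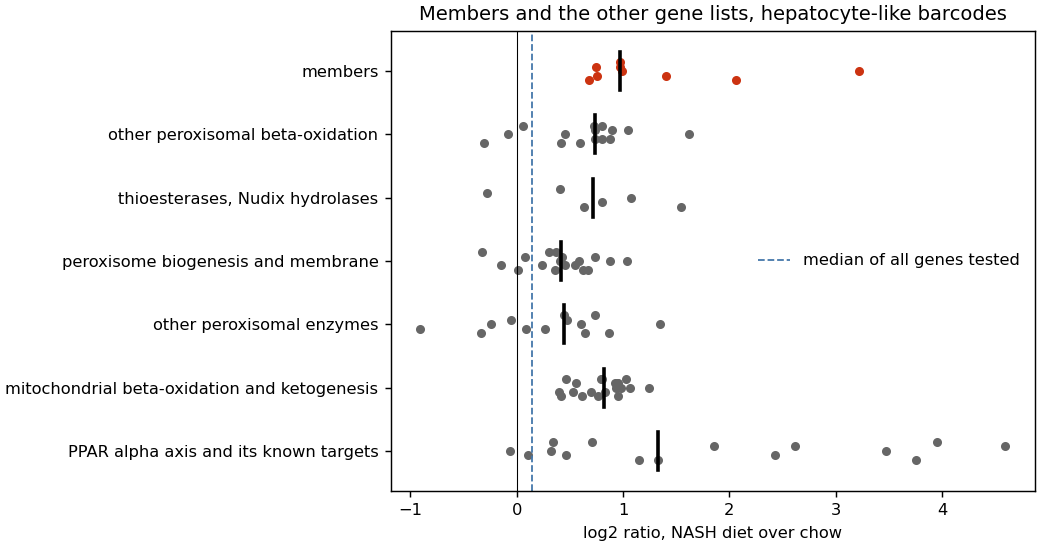
Log2 ratio, NASH diet over chow, of each gene that passed the minimum level (points), by list, with the median of each list (black bar) and the median of all genes compared (dashed line, 0.15). The 9 genes, in red, all lie right of the dashed line, from 0.68 to 3.22.

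The pattern over the 6 sums of diet and zone, as the mean of the standardised log2 levels of the 9 genes, was set against the genes with a mean of at least 20 CPM. Among the most alike of 4088 genes were Actr1b, Mat2a, Psme3 and Nucks1, with Pearson's r from 0.997 to 0.998, as a description over 6 sums from 2 libraries. Mat2a, a methionine adenosyltransferase gene, went from 51.9, 59.4 and 72.8 CPM across the chow zones to 80.1, 99.5 and 139 across those of the NASH library. The likeness is one of shape, since Actr1b went only from 32.7 to 44.0 between the lowest and the highest of the 6 sums. Of the 9 genes, Hsd17b4 lay closest to their own mean, at r = 0.987, and Ech1 farthest, at 0.829.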

How the data were processed

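The deposited matrices hold UMI counts per gene and barcode, whole numbers with no normalization by the authors, and per the file headers Cell Ranger 3.0.2 wrote them. The submitters' processing notes name Cell Ranger 3.1.0, Seurat and the genome build mm10, while the annotation was not given in the sources used here. Each library was read from its own matrix, and a merged matrix, which holds 86.4% of the chow UMIs, was an alternative. Barcodes were kept with at least 500 UMIs, at least 200 genes and at most 30% mitochondrial UMIs.

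Hepatocyte-like barcodes had at least 2% of UMIs outside mitochondrially encoded genes from 12 hepatocyte markers, and were left out with more than 0.2% and at least 2 UMIs from 45 markers of 8 other cell types. Endothelial-like and Kupffer-like barcodes needed at least 3 detected markers. These limits were set after the marker shares had been seen, and 105 chow and 268 NASH diet barcodes had 1 to 4% hepatocyte marker UMIs, near the limit. No doublet caller was used: the limit on other markers takes out mixed barcodes, and an alternative leaves out the barcodes of highest UMI count, at 0.8% per 1000 barcodes. UMIs were summed per library and class, given per 1000000 of all UMIs (CPM), and compared as log2 ratios with a pseudocount of 1. Intervals are exact Poisson for levels, exact conditional binomial for ratios and Clopper-Pearson for shares. Genes were compared at a mean of at least 10 CPM.

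The 9 genes and all lists were chosen with earlier results of these data known. Other genes were named as the 4 with the largest absolute log2 ratio of each list, plus Ppara, and for likeness the 5 highest correlations; some genes under this rule are not reported here. Malat1 and zone markers are named only to describe classes of barcodes. Gene positions are from GENCODE M21 (GRCm38), promoters from RefSeq, matched by symbol for 7 of 9 genes. The ratio and interval code was tested on simulated data. Python 3.11.15, NumPy 2.4.6, SciPy 1.17.1, pandas 2.3.3 and matplotlib 3.10.9 were used, with seed 0.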

Additional observations from a re-analysis of the deposited data

How the results depend on the processing

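With 1 library per diet, no library could be left out and no value has a replicate error. No paired analysis was possible because each diet had 1 library and the labels carry no replicate numbers. All 126 log2 ratios of single genes under the alternatives were above 0, while under the main settings 4217 of the 6200 genes compared were above 0. The median log2 ratio of the 9 genes, 0.97, was 1.04 per 1000000 UMIs outside mitochondrially encoded genes, 1.42 at a mitochondrial share of at most 20%, 0.90 in barcodes of at least 10000 UMIs and 1.05 with each barcode thinned to 2000 UMIs, which leaves out 1929 chow and 907 NASH diet barcodes. The count of genes at least 2-fold higher, 3, was 6 under the first, second and last of these settings, while the share of all genes that passed, 2.98%, was 3.47%, 6.33% and 4.08%. At the 20% limit Acaa1a, at 0.75 before, also passed, at 1.29, and Crat did not, at 0.88. The cause of these moves was not tested. The median deep over shallow ratio in chow, -0.26, was -0.075 per 1000000 UMIs outside mitochondrially encoded genes. The median zone differences were 0.55 to 0.62 in chow and 0.81 to 0.93 in the NASH library under the 7 alternatives. These lay between the median lower and the median upper bound of the 9 single-gene intervals, which is not an interval of the median. Single genes moved more: Acaa1b left its own counting interval under 2 of the 7 alternatives in chow and 5 in the NASH library. The pericentral over periportal ratio of Ech1 in the NASH library, 0.21, reversed to -0.26 at the 20% mitochondrial limit, and the cause was not tested. The 3 settings, a hepatocyte marker share of at least 5%, leaving out barcodes found in both libraries, and zone levels as a mean over barcodes, were chosen after the data had been seen. Depth limits Crat most, with 17 chow UMIs in shallow barcodes.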
